A study of Homo sapiens with 6 samples.

Results

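The genes described here encode 8 enzymes of the pentose phosphate pathway and of neighbouring reactions that regenerate NADPH, and they were found by symbol among the 19470 genes of the deposited count table. PGLS and PGD belong to the oxidative arm of the pathway, RPIA, RPE, TKT and TALDO1 to the non-oxidative arm, and ME1 and IDH1 are cytosolic NADP-dependent enzymes outside it. Not every enzyme of the pathway is in this set. HCCC9810 is an established human cholangiocarcinoma (CCA) cell line, labelled wild type. RNA was profiled after 24 h with 20 μM isolinderalactone (ILL), the plant-derived compound of the study, or with the vehicle DMSO for the same time, in 3 libraries per group. The model is 1 cell line at 1 concentration and 1 time point, and the sources used here do not say whether the 3 libraries of a group came from separate cultures, so p-values measure the spread between these libraries only.

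The pentose phosphate pathway branches from glycolysis at the level of hexose phosphate. Its oxidative arm yields NADPH, the reducing agent used by glutathione and thioredoxin reductases, by carbonyl reductases and by lipid synthesis, together with ribulose phosphate. The non-oxidative arm interconverts pentose phosphates with the sugar phosphates of glycolysis, reversibly, and supplies ribose phosphate for nucleotides. Malic enzyme and the NADP-dependent isocitrate dehydrogenases are further sources of NADPH. Several of these genes, ME1, PGD, TKT and TALDO1 among them, are known targets of the transcription factor NRF2 in other cells.

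Total counts ranged from 34282764 to 37758569 per library, and the 8 genes took 0.0892% to 0.0903% of the counts in control libraries and 0.124% to 0.130% in ILL libraries. No 2 libraries of a group agreed within counting noise (chi-square per degree of freedom from 5.10 to 11.5). Each was counted as 1 replicate, although this spread does not show whether the libraries came from separate cultures. The labelled cell type was examined with 8 biliary epithelial markers, whose summed level was 9275 to 9468 CPM (counts scaled to a common library size) in control and 9302 to 9818 CPM in ILL libraries. Of these, KRT7, KRT8, KRT18, KRT19 and EPCAM were abundant in every library. The fibroblast, hepatocyte and endothelial marker lists each summed to at most 20.9 CPM in every library. The leukocyte list summed to 38.9 to 42.6 CPM in control and 112 to 117 CPM in ILL libraries, nearly all of it from CD68, a lysosomal protein gene, at 1285 to 1445 and 3882 to 4029 counts, whereas PTPRC, which encodes the pan-leukocyte antigen CD45, had at most 9 counts.

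ILL treatment was accompanied by higher RNA of the oxidative-arm genes in the set, PGLS and PGD, and of ME1 and IDH1. RNA of RPIA and RPE, whose enzymes act directly on ribulose phosphate, was lower. ME1 rose 2.99-fold, PGLS 2.32-fold, IDH1 1.95-fold, PGD 1.71-fold and TALDO1 1.61-fold, while RPIA fell to 0.583 and RPE to 0.711 of the control level. TKT, at 0.928 of control, did not pass the test. All 8 genes had enough counts to be tested. By the quasi-likelihood test of edgeR at an adjusted p-value under 0.05, 5 of 8 were higher and 2 of 8 lower with ILL, whereas 36.2% of the 13066 tested genes were higher and 36.9% lower. With the fold change cutoffs of the study's methods (above 2 or under 0.5), ME1 and PGLS were differentially expressed genes (DEGs) higher with ILL and none of the 8 was a DEG lower with ILL, against 12.5% and 11.4% of tested genes. In 5 of the 8 genes every ILL library lay above every control library and in 3 every ILL library lay below, against 37.5% and 38% of tested genes. The median log2 fold change was 0.73 over the 8 genes and -0.0012 over all tested genes.

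**Figure D1:**
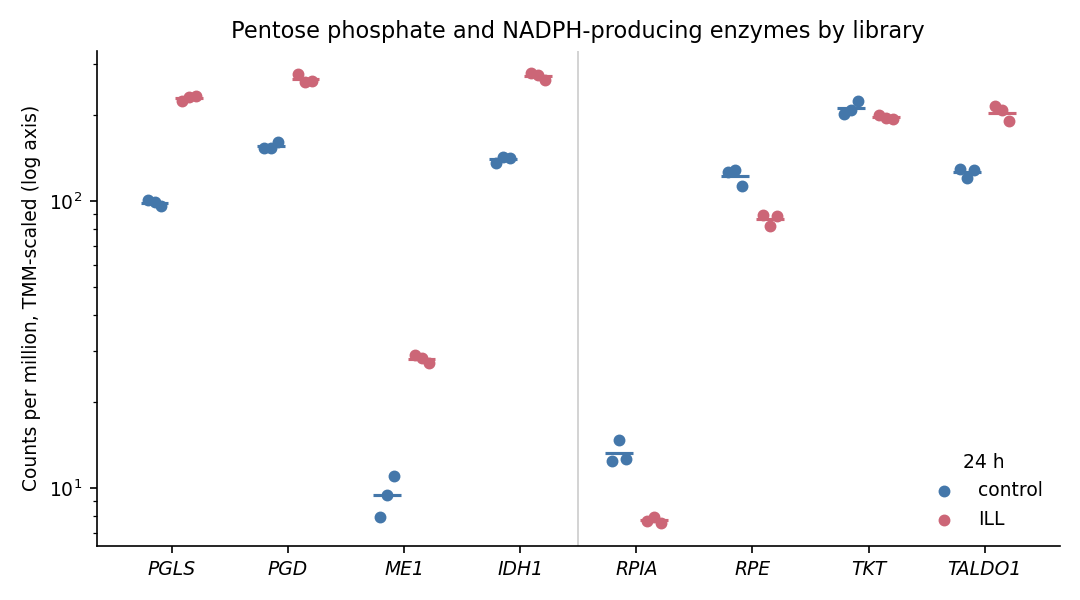
Normalized level in CPM, scaled by TMM (log axis), of each gene in the 3 control and 3 ILL libraries at 24 h, with a horizontal line at each group mean. Genes of the oxidative arm, ME1 and IDH1 stand left of the vertical line and the non-oxidative arm right of it; ILL libraries lie above the controls for 5 genes and below them for RPIA, RPE and, by a narrow gap, TKT.

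In the oxidative arm, PGLS (phosphogluconolactonase, chromosome 19 of GRCh38 from 17511629 to 17521288) hydrolyses the lactone formed in the first step. Its normalized level was 101, 99.2 and 96.1 CPM in control and 224, 230 and 232 CPM in ILL libraries. The groups were far apart relative to their spread, with a mean of 98.7 ± 2.39 CPM in control and 229 ± 4.29 CPM with ILL (SD, n = 3 each). The log2 fold change was 1.21 (standard error, SE, 0.05, edgeR adjusted p = 2.0e-16). PGD (phosphogluconate dehydrogenase, chromosome 1 from 10398592 to 10420144), which releases carbon dioxide and makes NADPH, was at 153, 154 and 160 CPM in control and 277, 259 and 262 CPM in ILL libraries. Its log2 fold change was 0.77 (SE 0.05, edgeR adjusted p = 1.1e-12). Both genes rose, but not equally: the log2 ratio of PGD to PGLS counts within a library fell by 0.44, from 0.66 ± 0.07 to 0.22 ± 0.08 (SD, n = 3 each), with no overlap between groups. An exact two-sided permutation test gave p = 0.1, the smallest that 3 against 3 libraries allow. Part of an exon of PGLS is annotated on the opposite strand as the long non-coding RNA AC010618.3, and since the strand setting of the counting is not given in the sources used here, reads of such partners cannot be told apart.

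ME1 and IDH1 were the other NADPH-producing enzymes of this set. ME1, cytosolic malic enzyme (chromosome 6 from 83210389 to 83431071), oxidizes malate to pyruvate and had the largest log2 fold change of the 8 genes, 1.58 (SE 0.11, edgeR adjusted p = 1.8e-12). It had 308, 332 and 389 counts in control libraries and 1016, 979 and 955 counts in ILL libraries. The control libraries were the more variable group, with a coefficient of variation of 16.2% in CPM against 3.08% with ILL, and the log2 fold change lay between 1.46 and 1.70 when 1 library was left out. IDH1, cytosolic isocitrate dehydrogenase (chromosome 2 from 208236227 to 208266074), makes NADPH while converting isocitrate to oxoglutarate. It was at 136, 142 and 142 CPM in control and 279, 276 and 264 CPM in ILL libraries. Its log2 fold change of 0.96 (SE 0.05, edgeR adjusted p = 1.3e-14) was just below the DEG cutoff, and its 95% confidence interval, 0.86 to 1.07, included that cutoff. IDH1 also overlaps an antisense gene, IDH1-AS1, in exon sequence.

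**Figure D2:**
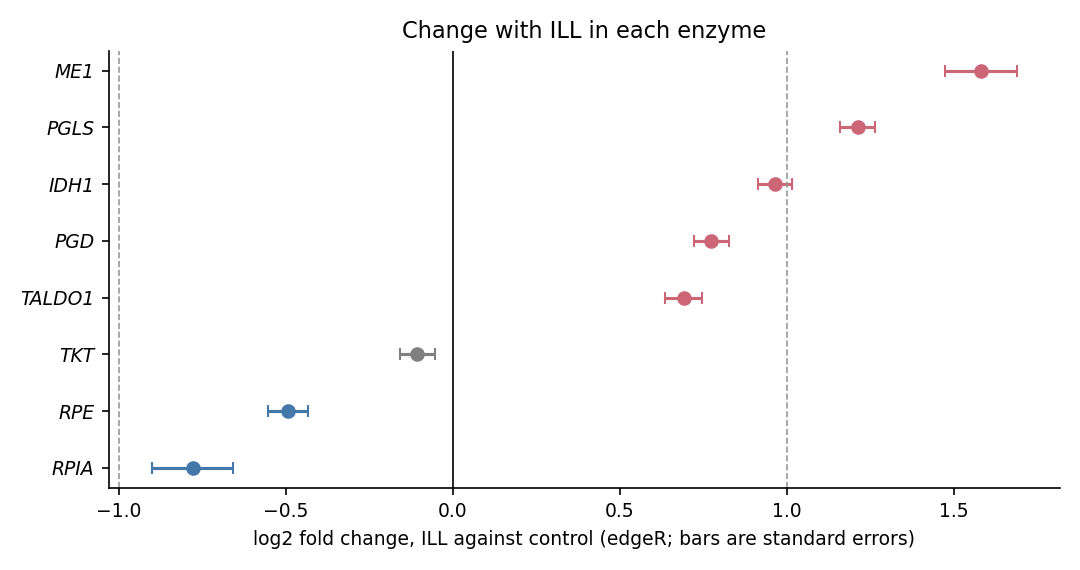
Log2 fold change of ILL against control for each gene, from edgeR, with standard errors as bars and dashed lines at the DEG cutoffs of -1 and 1. ME1 (1.58) and PGLS (1.21) lie beyond the upper cutoff, IDH1 (0.96) next to it, and TKT (-0.11) close to zero, between the genes that rose and those that fell.

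The non-oxidative arm did not move as a block. RPIA (ribose phosphate isomerase, chromosome 2 from 88691644 to 88750935), which turns ribulose phosphate into ribose phosphate, had 481, 517 and 448 counts in control and 268, 274 and 264 counts in ILL libraries. All ILL libraries were below all controls, and the log2 fold change was -0.78 (SE 0.12, edgeR adjusted p = 3.4e-06). RPE (ribulose phosphate epimerase, chromosome 2 from 210002565 to 210022259), which turns the same substrate into xylulose phosphate, was at 126, 128 and 113 CPM in control and 89.8, 82.2 and 88.9 CPM in ILL libraries. Its log2 fold change was -0.49 (SE 0.06, edgeR adjusted p = 7.7e-08). The RPE count is less certain than the others because the gene has near-identical sequence elsewhere. RPEL1, a related gene at 7 to 30 counts per library, matched an RPE transcript at 96.6% identity over 1165 bases. KANSL1L, on the opposite strand, shares 837 bases of exon sequence with RPE, and had 60 to 87 counts in control and 104 to 147 in ILL libraries, far fewer than RPE.

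TKT (transketolase, chromosome 3 from 53224707 to 53256052) and TALDO1 (transaldolase, chromosome 11 from 747329 to 765024) carry carbon units between the sugar phosphates and connect the arm to glycolysis. TALDO1 was at 130, 121 and 128 CPM in control and 214, 207 and 189 CPM in ILL libraries. The groups did not overlap, and the log2 fold change was 0.69 (SE 0.06, edgeR adjusted p = 6.1e-11). TKT was at 202, 208 and 223 CPM in control and 199, 194 and 194 CPM in ILL libraries. Every ILL library lay below every control library, yet the gap was small beside the spread of the controls. The log2 fold change of TKT was -0.11 (SE 0.05, 95% confidence interval -0.21 to 0.00065, edgeR adjusted p = 0.0687), so a decrease down to the lower bound remained within the interval. Scaled by library size only, TKT was called lower (log2 fold change -0.18, edgeR adjusted p = 0.00372), and the median over all tested genes then moved to -0.0702. It was also called lower without control replicate 1, at -0.14. Within a library, the log2 ratio of TKT to TALDO1 counts fell by 0.80, from 0.74 ± 0.09 to -0.053 ± 0.075 (SD, n = 3 each; exact two-sided permutation p = 0.1, the smallest possible). The log2 ratio of PGD to TKT, an oxidative and a non-oxidative enzyme, rose by 0.88, from -0.44 ± 0.04 to 0.44 ± 0.03 (SD, n = 3 each). The groups did not overlap, and the exact permutation p was again 0.1. This ratio depends on TKT and does not stand for the arms as wholes. The edgeR log2 fold change of TALDO1, 0.69, was near that of PGD, 0.77. The log2 ratio of RPIA to RPE fell by 0.28 (exact permutation p = 0.1). Over the 7 ratios computed, including the 3 with paralogs given later, each p adjusted by the Benjamini-Hochberg method was 0.1 in the exact permutation test.

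Levels of different genes were compared as FPKM, in which the authors divided counts by gene length and library total. In control libraries the order from high to low was TALDO1 at 108 ± 4.19, PGD at 70.2 ± 1.52, TKT at 69.2 ± 3.29, IDH1 at 52.9 ± 1.22, PGLS at 51.8 ± 1.496, RPE at 27.6 ± 1.90, RPIA at 7.49 ± 0.72 and ME1 at 2.88 ± 0.45 FPKM (SD, n = 3). The ranges of PGD and TKT overlapped, as did those of IDH1 and PGLS, and all other neighbours were separated. With ILL the order became TALDO1 at 166 ± 10.6, PGD at 115 ± 4.79, PGLS at 114 ± 1.74, IDH1 at 98.4 ± 2.92, TKT at 61.2 ± 1.26, RPE at 18.7 ± 0.999, ME1 at 8.20 ± 0.27 and RPIA at 4.16 ± 0.10 FPKM (SD, n = 3), where PGD and PGLS alone overlapped as neighbours. PGLS and IDH1 thus stood above TKT, and ME1 above RPIA, only in the ILL libraries.

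The summed FPKM of the 8 genes was 390 ± 3.14 in control and 585 ± 16.99 in ILL libraries (SD, n = 3 each). PGLS and PGD together went from 122 ± 0.52 to 229 ± 3.76 FPKM and ME1 with IDH1 from 55.8 ± 1.58 to 107 ± 3.20 FPKM. The 4 genes of the non-oxidative arm together went from 212 ± 3.07 to 249.7 ± 11.7 FPKM, and without TALDO1, the one of them that rose, from 104 ± 1.92 to 84.1 ± 2.04 FPKM (SD, n = 3 for each sum). As a share of the set, TKT dropped from 17.7% ± 0.74 to 10.5% ± 0.14 and RPE from 7.09% ± 0.54 to 3.20% ± 0.17, while PGLS went from 13.3% ± 0.46 to 19.6% ± 0.85 and IDH1 from 13.6% ± 0.35 to 16.8% ± 0.14 (SD, n = 3). The share of TALDO1 was 27.6% ± 0.95 and 28.3% ± 1.07, a difference within the spread of the libraries. These shares are of transcript level per length and carry no test.

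**Figure D3:**
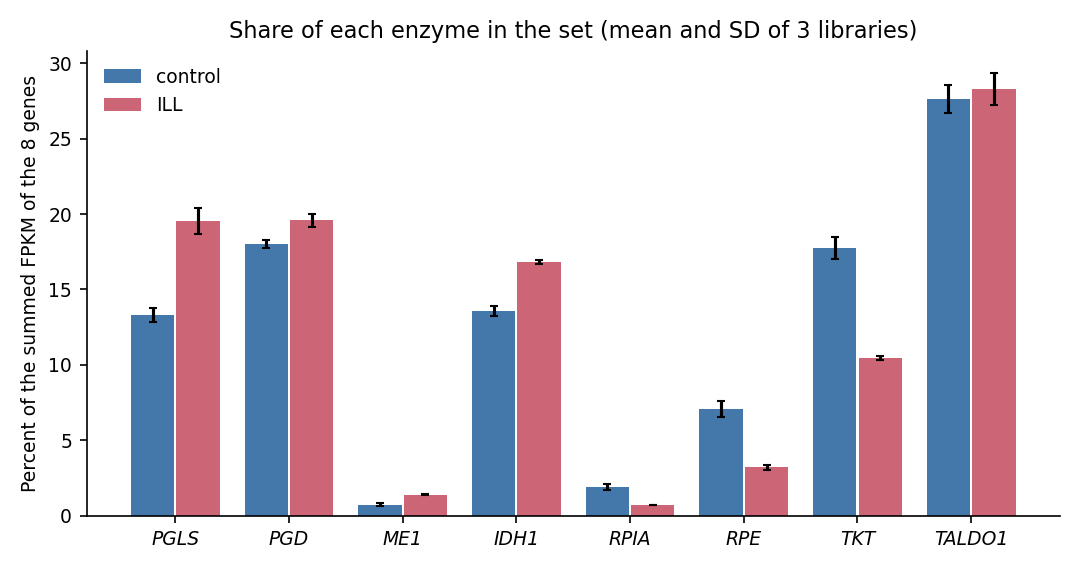
Mean percent of the summed FPKM of the 8 genes taken by each gene in control and ILL libraries, with SD of 3 libraries as bars. TKT had 17.7% in control and 10.5% with ILL, PGLS 13.3% and 19.6%, and TALDO1 about the same share in both groups.

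The start regions of these genes were examined for short motifs in the RefSeq promoter windows (GRCh38.p14, 250 bases before to 50 after a start), of which there were 9 for the 8 genes because IDH1 has 2. The core of the antioxidant response element, the sequence bound by NRF2 with small MAF proteins, was searched as TGACNNNGC on both strands. It occurred in 4 of the 9 windows, those of ME1, PGD, RPE and 1 of IDH1, and in 13.3% of all 35116 windows. The ME1 match, TGACTCAGC, also holds the AP-1 motif TGACTCA, and ME1 had another match that began 12 bases after the start. PGLS, TALDO1, TKT and RPIA had no match of these letters in their windows. ME1, PGD and IDH1, which rose, had a match, and RPIA, which fell, had none. RPE, which fell, also had a match, and PGLS and TALDO1, which rose, had none. Sequence outside the windows was not searched and binding was not measured. Whether NRF2 acts on these genes here was not tested. TGATGNAA, letters of the composite C/EBP-ATF element, occurred in 0 of the 9 windows and 3.62% of all windows, and the E-box CACGTG in 0 of the 9 and 7.26% of all. The 250 bases before the start are shown for the windows with a match, 5′ to 3′, with the antioxidant response element core or its reverse complement in capitals.
ME1, chr6:83431052-83431301, minus strand: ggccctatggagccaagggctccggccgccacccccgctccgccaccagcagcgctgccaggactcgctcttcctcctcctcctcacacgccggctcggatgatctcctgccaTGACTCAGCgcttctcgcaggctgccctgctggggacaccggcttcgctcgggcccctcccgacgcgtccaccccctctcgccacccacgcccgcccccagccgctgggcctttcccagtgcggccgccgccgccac
PGD, chr1:10398814-10399063, plus strand: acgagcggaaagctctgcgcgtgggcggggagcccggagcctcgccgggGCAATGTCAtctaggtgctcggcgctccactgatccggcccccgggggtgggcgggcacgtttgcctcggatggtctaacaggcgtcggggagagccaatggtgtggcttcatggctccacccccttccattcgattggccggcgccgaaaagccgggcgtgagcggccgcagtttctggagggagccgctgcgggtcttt
IDH1, chr2:208255072-208255321, minus strand: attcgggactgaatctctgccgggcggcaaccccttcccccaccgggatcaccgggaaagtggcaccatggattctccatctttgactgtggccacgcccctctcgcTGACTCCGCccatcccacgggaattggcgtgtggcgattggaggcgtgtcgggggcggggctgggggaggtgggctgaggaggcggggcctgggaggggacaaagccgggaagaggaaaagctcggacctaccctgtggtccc
RPE, chr2:210002388-210002637, plus strand: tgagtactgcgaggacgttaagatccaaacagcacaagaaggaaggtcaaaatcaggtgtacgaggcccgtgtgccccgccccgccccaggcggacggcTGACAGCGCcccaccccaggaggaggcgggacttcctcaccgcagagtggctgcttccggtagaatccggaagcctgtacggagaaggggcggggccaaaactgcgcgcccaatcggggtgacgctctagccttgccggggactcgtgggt

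The cytosolic enzymes were next set beside paralogs that catalyse the same kind of reaction in mitochondria or with NAD. IDH2, the mitochondrial NADP-dependent isocitrate dehydrogenase, was at 52.3 ± 3.79 CPM in control and 55.5 ± 1.78 CPM with ILL (SD, n = 3 each), with a log2 fold change of 0.084 (95% confidence interval -0.054 to 0.22, edgeR adjusted p = 0.261). The log2 ratio of IDH1 to IDH2 rose by 0.88, from 1.42 ± 0.08 to 2.30 ± 0.07 (SD, n = 3 each; exact permutation p = 0.1), and the groups did not overlap. ME3, the mitochondrial NADP-dependent malic enzyme, fell by 0.95 on the log2 scale (SE 0.09, edgeR adjusted p = 1.4e-09), from 25.3 ± 1.11 to 13.1 ± 0.63 CPM. The log2 ratio of ME1 to ME3 counts went from -1.43 ± 0.18 to 1.11 ± 0.05 (SD, n = 3 each; exact permutation p = 0.1), a 5.82-fold rise, and counts of ME1 passed those of ME3 in all ILL libraries. ME2, the mitochondrial malic enzyme that prefers NAD, had a log2 fold change of -0.22 (edgeR adjusted p = 0.0213), which did not pass without control replicate 1 or without ILL replicate 3. The log2 ratio of ME1 to ME2 rose by 1.81 (exact permutation p = 0.1). The NAD-linked list of 6 genes held 1 gene called higher and 4 lower, against 36.2% and 36.9% of all tested genes, led by IDH3A, a subunit of the mitochondrial NAD-dependent isocitrate dehydrogenase, which fell by 1.27 on the log2 scale. IDH3B and the cytosolic malate dehydrogenase gene MDH1 fell by 0.68 and 0.75, and IDH3G was called higher at 0.18, a call lost with scaling by library size only, in limma on log2 FPKM, and without control replicate 1 or control replicate 2.

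Among 12 other genes that handle pentoses and ribose, 9 had enough counts to be tested, of which 1 was called higher and 5 lower with ILL, against 36.2% and 36.9% of all tested genes, with a median log2 fold change of -0.39. TKTL1, TKTL2 and PRPS1L1 had 0 counts in every library. H6PD, which carries out the oxidative steps in the endoplasmic reticulum and generates NADPH there, rose from 9.43 ± 1.85 to 19.9 ± 2.23 CPM (SD, n = 3 each), a log2 fold change of 1.08 (SE 0.13, edgeR adjusted p = 4.6e-08), and 0.487 on log2 of FPKM plus 1 without a filter. PRPS1 and PRPS2, which make phosphoribosyl pyrophosphate from ribose phosphate, the product of RPIA, both fell. The PRPS1 level went from 31.7 ± 0.70 to 9.76 ± 1.07 CPM (SD, n = 3 each) and its log2 fold change was -1.70 (SE 0.10, edgeR adjusted p = 5.4e-14), while that of PRPS2 was -0.97. SHPK, the sedoheptulose kinase, fell by 0.39 on the log2 scale. TIGAR, a phosphatase that directs hexose phosphate toward the pathway, had a log2 fold change of 0.0089 and did not pass the test.

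Of 10 other sources of NADPH and NAD kinases, 3 were called higher and 5 lower. The shares over all tested genes were 36.2% and 36.9%, and the counts carry no test. Most of the genes named here are folate enzymes. ALDH1L2, the mitochondrial formyl-tetrahydrofolate dehydrogenase that makes NADPH, rose from 8.82 ± 1.09 to 110 ± 2.54 CPM (SD, n = 3 each), a log2 fold change of 3.64 (SE 0.08, edgeR adjusted p = 6.3e-22). Its cytosolic counterpart ALDH1L1 rose by 1.91 and the mitochondrial dehydrogenase MTHFD2 by 1.61 on the log2 scale, whereas cytosolic MTHFD1 fell by 1.86 and MTHFD2L by 1.14. All of these passed the same edgeR test. On log2 of FPKM plus 1 the values for ALDH1L1 and, without a filter, MTHFD2L were smaller, at 1.17 and -0.57. ALDH1L2 thus had a larger log2 fold change than any of the 8 enzymes. Per length, its level in control libraries was 1.12 ± 0.14 FPKM, below the 2.88 ± 0.45 FPKM of ME1 (SD, n = 3 each).

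Of 21 genes whose products spend NADPH, 12 were called higher, 7 lower and 2 not called, against 36.2% higher and 36.9% lower over all tested genes, and the median log2 fold change was 0.40. Those called higher were led by the aldo-keto reductases AKR1C1 (2.71) and AKR1C2 (2.21), whose reads can be shared between near-identical paralogs, and by the thioredoxin reductase TXNRD1, at 2.001 on the log2 scale (SE 0.06, edgeR adjusted p = 4.4e-20). Among those that fell was DHCR7, a reductase of cholesterol synthesis, at -1.78. Among 15 genes of the NRF2 pathway, 13 were called higher and 0 lower, against the same background, with a median log2 fold change of 1.01. At an unadjusted p under 0.05, and in DESeq2, also 0 of them were lower. SLC7A11, the cystine transporter, SQSTM1, an autophagy receptor, and HMOX1, heme oxygenase, rose by 2.94, 2.42 and 2.36 on the log2 scale. These values were larger than that of ME1. This list and the members were chosen with results of these samples known and give no independent evidence of direction.

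A further list held 11 enzymes that share metabolites with the pathway, all of glycolysis apart from FBP1, which works against it. Of these 11, 2 were called higher and 6, FBP1 among them, lower, against 36.2% and 36.9% of all tested genes. The median log2 fold change was -0.25. These counts carry no test. TPI1, triose phosphate isomerase, fell by 0.77 on the log2 scale (SE 0.05, edgeR adjusted p = 1.6e-13), from 1276 ± 29.9 to 746 ± 20.5 CPM (SD, n = 3 each). PFKM, the muscle-type phosphofructokinase, fell by 1.23 and FBP1, fructose bisphosphatase, by 1.61, the latter at 21 to 26 counts in ILL libraries and at -0.68 on log2 of FPKM plus 1 without a filter. PFKP, the platelet-type phosphofructokinase, rose by 0.39. ALDOA also rose, by 0.54, but had only 639 to 917 counts per library. GENCODE 29 lists a protein-coding gene, AC093512.2, over its exons on the same strand. That gene had no row under this name in the deposited counts, and how shared reads were counted, if at all, is not known. In bulk RNA, a change in the cells expressing a gene and a change in RNA per cell cannot be told apart. This holds for every increase and every decrease given above.

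**Figure D4:**
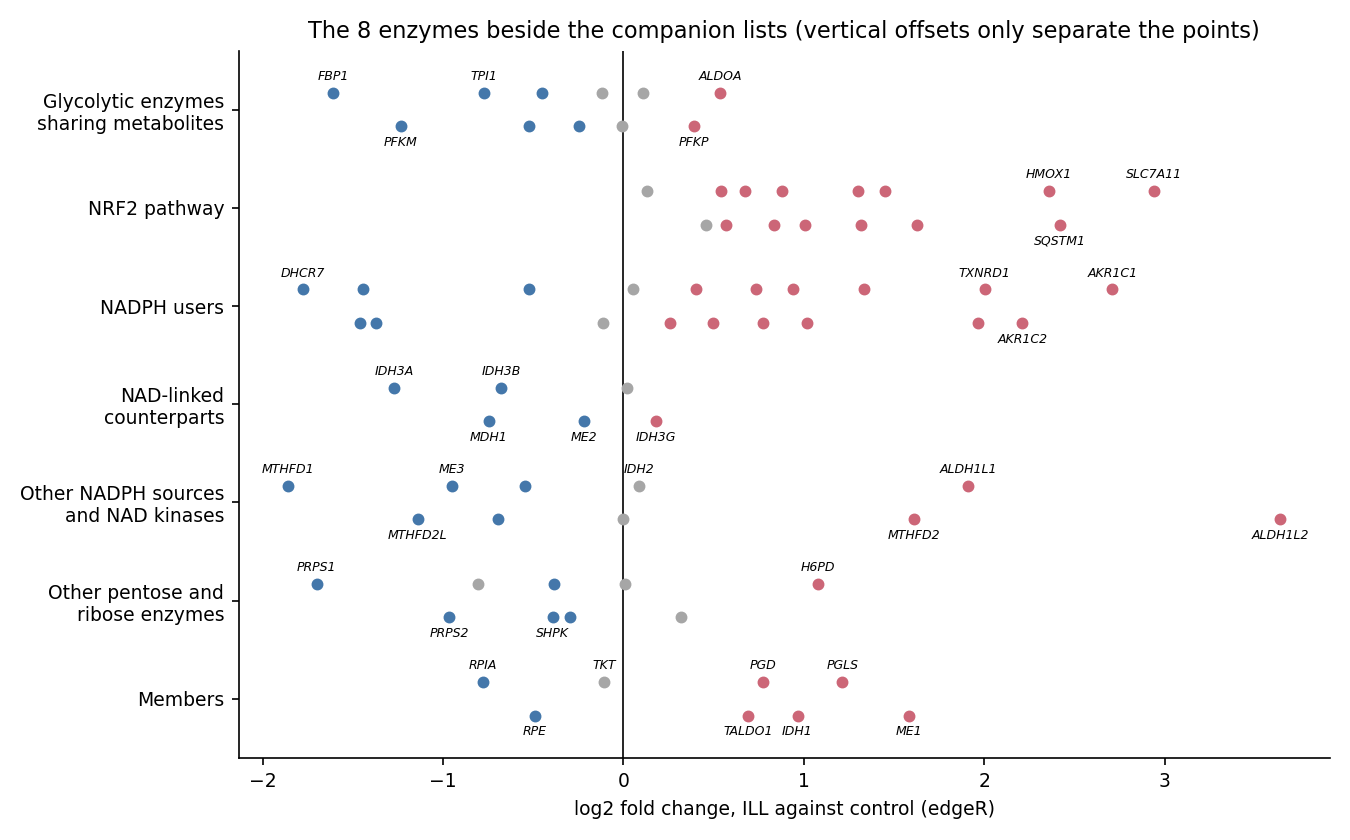
Log2 fold change of ILL against control for the 8 enzymes and for the tested genes of 6 companion lists, 1 point per gene apart from genes not reported here, red for genes called higher, blue for genes called lower and grey for genes not called. The 13 called NRF2 pathway genes lie right of zero, the NADPH users drawn spread from DHCR7 (-1.78) to AKR1C1 (2.71), and ALDH1L2 (3.64) lies farthest to the right.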

How the data were processed

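Human HCCC9810 RNA-seq libraries, 3 with ILL and 3 with vehicle, were grouped by the sample labels. The authors deposited raw counts per gene symbol, with 1 column per library, and FPKM values in which each count is scaled by the library total and by an integer length per gene (100% of 88055 nonzero values within 0.1%). The submitters' processing notes name GRCh38 and DESeq2, and the aligner, counting program and annotation are not given in the sources used here. From the counts, filterByExpr left 13066 of 19470 genes, which were scaled by TMM and tested with edgeR's quasi-likelihood test (edgeR 4.0.16, R 4.3.3) with Benjamini-Hochberg adjustment over all tested genes. Standard errors and confidence intervals were derived from the F statistic. The biological coefficient of variation was 0.0717, and the fit was tested on simulated counts. Each of the 8 genes had at least 264 counts in every library, and counting error weighs most on RPIA and ME1, which had the fewest. Ratios within libraries were taken on counts plus 0.5 and tested by exact permutation over libraries.

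The members, the companion and marker lists and the pairs were chosen with earlier results of these data known. Named were all 8 members, the paralogs of the pairs, and at most 3 called genes at each end of each companion list with a mean of at least 1 CPM. The other genes named (TIGAR, the genes at 0 counts, those that overlap or resemble a member or ALDOA, and the markers) were chosen after their values were seen. Alternatives were DESeq2's size factors, library size only, other count filters, DESeq2 1.42.0, the replicate block, each library left out, and limma 3.58.1 on log2 of FPKM. Positions and overlapping genes are from GENCODE 29 (GRCh38). Transcripts similar to those of the 8 genes were found with BLAST 2.17.0 (at least 95% identity over 200 bases). Promoter windows are from RefSeq, with all 8 genes matched by symbol. Some genes, also some that the naming rule would give, are not reported here.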

Additional observations from a re-analysis of the deposited data

How the results depend on the processing

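Of the 8 genes, 7 had the same direction and the same call under each of 15 alternatives, and 28 of 30 other genes given by the naming rule did so in the alternatives that tested them. The size of the log2 fold change shrank by over 1.5 times with limma on log2 of FPKM plus 1 for ALDH1L1 (1.17 against 1.91) and, without the FPKM filter, also for H6PD (0.487 against 1.08), MTHFD2L (-0.57 against -1.14) and FBP1 (-0.68 against -1.61), since adding 1 understates changes of genes near 1 FPKM. TKT was called lower with library size only (-0.18), with limma on log2 of FPKM plus 1 (-0.17, with or without the FPKM filter) and on FPKM plus 0.1 (-0.18), and without control replicate 1 (-0.14, adjusted p = 0.0447 from edgeR), while over all left-out libraries it lay between -0.14 and -0.066. Numbers of the replicates did not pair the libraries (correlations of same-numbered deviations from -0.0745 to 0.00638), and the replicate block gave 4669 genes higher and 4768 lower against 4726 and 4821, with ME1 at 1.59, and changed no call of the 8 genes. With limma on log2 of FPKM plus 1, 668 DEGs were higher and 923 lower, and without the filter 680 and 929. With FPKM plus 0.1, 909 were higher. The main fit gave 1635 and 1485. The filtered FPKM fits tested 10571 genes and the unfiltered one 16266, against 13066 in the main fit, and FPKM was not scaled by TMM. The cause of the differences was not tested. The called higher gene of the NAD-linked list was lost (0 genes) with library size only and all 3 FPKM settings, and the count was 0 to 1 over left-out libraries, 0 without control replicate 1 or control replicate 2. That of the other pentose and ribose enzymes, H6PD, was at 0 with both filtered FPKM settings, where its mean was under 1 FPKM and it was not tested. Without the division by length, the differences in share, ILL minus control, were 2.87 percentage points for PGD, -0.91 for RPIA, -7.23 for RPE, -8.88 for TKT, 1.11 for ME1 and 5.20 for IDH1, as follows from dropping gene length. All 7 ratios kept their direction in 8 alternatives each. Depth limited FBP1 and RPEL1, with at most 102 and 30 counts per library.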
